A study of Mus musculus with 34 samples.

Results

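Malat1, Neat1 and Kcnq1ot1 are 3 long noncoding RNA genes whose transcripts stay in the nucleus. They were chosen by name from a gene-level table of 51368 mouse genes, 9713 of which carry a long noncoding type in the GENCODE M21 annotation. All 3 had counts in all 34 libraries and entered every fit. Malat1 (ENSMUSG00000092341) lies on chromosome 19 at 5795690 to 5802672, and Neat1 (ENSMUSG00000092274) on the same chromosome and strand at 5824708 to 5845478. Kcnq1ot1 (ENSMUSG00000101609) lies on chromosome 7 at 143203458 to 143296549, antisense to Kcnq1 and inside that gene. All coordinates are on the minus strand of GRCm38.

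Malat1 is a long-lived RNA of nuclear speckles, the bodies where splicing factors gather. Neat1 is the scaffold of paraspeckles, nuclear bodies built from its long transcript together with proteins such as NONO and SFPQ, while its short transcript shares the 5′ end and is polyadenylated. Kcnq1ot1 is an unspliced RNA read from the paternal chromosome, where it is known for silencing a cluster of imprinted genes that includes Cdkn1c. Malat1 and long Neat1 are known to lack a conventional poly(A) tail. Their 3′ ends are cut by RNase P ahead of a tRNA-like element and are capped by a triple helix in which U-rich stretches clamp an A-rich tract.

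The study prepared RNA-seq libraries in several ways from liver RNA of 1 untreated wild-type C57BL/6J mouse aged 12 weeks, plus 1 heart library, to measure how library preparation shapes the data. The labels disagree on the animal's sex, female among the characteristics but male in the growth protocol, and Xist, the RNA of the inactive X chromosome, had 0 to 10 counts in each library. There were 9 polyA-selected libraries (batch 1), 9 rRNA pull-down and 9 rRNA digestion libraries (both batch 2), each set holding every combination of 3 PCR ramp rates and 3 fragment lengths. There were also 3 unselected liver libraries in each batch and 1 unselected heart library in batch 1, all with slow ramp and medium fragments. Selected libraries started from 200 ng of RNA and unselected ones from 20 ng, and each selection method had its own kit. Selection, kit and input therefore cannot be told apart in any comparison of selected with unselected libraries. The replicates are separate preparations from the same animal, so p-values measure only the spread between preparations. PolyA and rRNA-method libraries come from different batches, and only unselected liver libraries were made in both, so the batch difference is measured in those alone.

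Totals were 19873390 to 41396063 counts per library, apart from the pull-down library with slow ramp and long fragments, which held 1126383. That library stood apart in rRNA as well, with 12.7% of its counts in annotated rRNA genes against 0.00866 to 0.0216% in the other pull-down libraries. Genes for rRNA and Lars2, a gene whose transcript holds an rRNA-like repeat, held 84.8 to 85.7% of counts in the unselected liver libraries, 80.6% in heart, 14.2 to 24.5% after pull-down and at most 1.12% after polyA selection or digestion. Levels are therefore given as normalised CPM, counts divided by library totals that were rescaled by TMM over the 33 liver libraries.

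The sequences below come from the GENCODE M21 transcripts on GRCm38 and are printed 5′ to 3′ on the minus strand. They are annotated 3′ ends of Neat1 and Kcnq1ot1, the Malat1 tract ahead of its annotated end, and an A run inside Kcnq1ot1. Their part in the results of polyA selection was not tested. In the tracts of Malat1 and long Neat1, capitals mark the U-rich motif TTTTGCTTTT and the A-rich motif AAAAGCAAAA of the triple helix, taken as the last 10 bases of the long Neat1 transcript and their reverse complement. In the Neat1 short end and the Kcnq1ot1 end they mark the polyadenylation signal AATAAA, and in the Kcnq1ot1 internal run the A bases.

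Malat1 tract, chr19:5795982-5796081: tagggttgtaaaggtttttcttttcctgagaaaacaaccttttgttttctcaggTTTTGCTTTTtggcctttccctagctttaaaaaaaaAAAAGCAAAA
Neat1 long transcript end, chr19:5824708-5824807: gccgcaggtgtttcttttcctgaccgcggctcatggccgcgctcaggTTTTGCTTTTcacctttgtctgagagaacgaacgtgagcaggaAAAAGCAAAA
Neat1 short transcript end, chr19:5842307-5842366: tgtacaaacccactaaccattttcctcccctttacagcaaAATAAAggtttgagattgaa
Kcnq1ot1 internal run, chr7:143226925-143227005: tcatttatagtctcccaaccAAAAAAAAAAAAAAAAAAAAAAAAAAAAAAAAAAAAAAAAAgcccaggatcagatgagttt
Kcnq1ot1 annotated end, chr7:143203458-143203517: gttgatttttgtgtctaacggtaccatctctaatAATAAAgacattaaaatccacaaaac

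The annotated long Neat1 transcript (20771 bases) ended exactly at the A-rich motif, whereas the annotated Malat1 transcript (6983 bases) ran on for 292 bases beyond it. TTTTGCTTTT followed within 80 bases by AAAAGCAAAA, searched on the transcript strand, occurred in 4 of 139316 annotated transcripts, which belong to Malat1, Neat1 and Retreg3. Each motif alone was present in 0.060% of consecutive 100-base windows of the transcripts. The short Neat1 transcript (3004 bases), Kcnq1ot1 and the annotated Malat1 transcript held AATAAA in their last 40 bases, as did 26.2% of all transcripts, and the long Neat1 transcript did not. Runs of at least 10 A, present in 7.29% of transcripts, numbered 10 in Kcnq1ot1 (longest 41 bases) and 1 in Malat1 (12 bases, inside the tract). No such run was found in Neat1, whose longest was 7 bases. These matches are descriptions of the annotated letters, and the gene-level counts do not separate the short from the long Neat1 transcript.

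Without selection, all 3 RNAs were readily measured in liver. Malat1 had 3589.6, 3609 and 3676 normalised CPM in the batch 1 libraries and 3687, 3953 and 3752 in batch 2. Neat1 had 604, 614 and 596 in batch 1 and 615, 602 and 602 in batch 2. Kcnq1ot1 had 77.9, 72.5 and 78.1 in batch 1 and 79.3, 80.1 and 80.7 in batch 2. Malat1 was the highest of the 3 in every library and Kcnq1ot1 the lowest.

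Per kilobase of annotated exon, the order was the same and the distance wider. In batch 1 the levels were 519 ± 6.46 normalised CPM per kb for Malat1, 29.1 ± 0.441 for Neat1 and 0.818 ± 0.0338 for Kcnq1ot1 (SD, n = 3). Ranks per kilobase were taken among genes with an annotated exon length, with rRNA genes left out. In those libraries Malat1 ranked 65 to 66, Neat1 817 to 845 and Kcnq1ot1 9775 to 9978. The Neat1 length spans both transcripts and the Kcnq1ot1 length is 93.1 kb, so these are averages over whole loci, along which coverage was not examined. Between the batches the genes differed by 0.07, 0.00 and 0.07 on the log2 scale (Malat1, Neat1, Kcnq1ot1; adjusted p from 0.911 to 1 with edgeR's quasi-likelihood test), and 0.0324% of the 15422 genes tested were called.

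After polyA selection all 3 RNAs fell to a small remainder, Kcnq1ot1 furthest and Neat1 least. Malat1 had 79.3 normalised CPM in its lowest polyA library, 103 at the median and 178 in its highest. Neat1 had 68.0, 71.7 and 83.1 by the same measures, and Kcnq1ot1 0.750, 1.08 and 1.66. No polyA library overlapped any unselected library in any of the 3 genes. Kcnq1ot1 rested on 33 to 61 counts per polyA library, against 2857 to 5863 for Malat1 and 2448 to 4291 for Neat1.

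In the fit over the 33 liver libraries, in which length and ramp were covariates, Malat1 was 33.5-fold lower than in the unselected libraries of batch 1 (log2 fold change -5.07, SE 0.11, adjusted p = 3.48e-26, edgeR's quasi-likelihood test with Benjamini-Hochberg adjustment). Kcnq1ot1 was 67.0-fold lower (log2 -6.07, SE 0.11, adjusted p = 1.13e-27). Neat1 was 8.37-fold lower (log2 -3.06, SE 0.05, adjusted p = 1.63e-28). This left 2.98% of the unselected level for Malat1, 1.49% for Kcnq1ot1 and 11.95% for Neat1. Genes called in either direction made up 53% of those tested and genes called lower 26.2%. Only 202 of the 15422 had a lower fold change than Kcnq1ot1, 280 a lower one than Malat1 and 496 a lower one than Neat1.

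**Figure D1:**
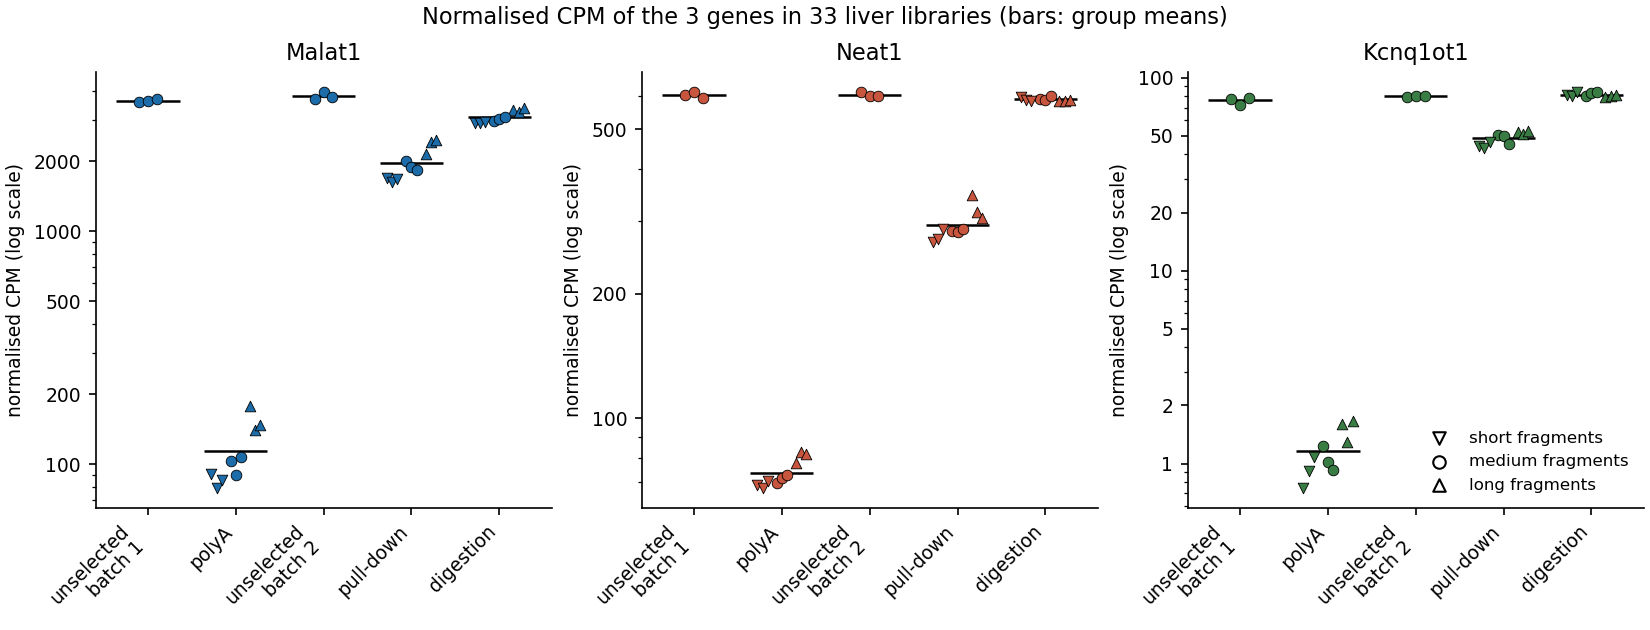
Normalised CPM (log scale) of Malat1, Neat1 and Kcnq1ot1 in each of the 33 liver libraries, by library type, with marker shape for fragment length and bars for group means. PolyA libraries lie far below all others, pull-down libraries in between, and digestion libraries close to the unselected ones.

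All 3 RNAs were also lower in the rRNA pull-down libraries, at 47.3% to 60.0% of the unselected level. Malat1 ranged from 1622 to 2452 normalised CPM over the 9 pull-down libraries (median 1892), Neat1 from 267 to 347 (median 287) and Kcnq1ot1 from 43.1 to 53.0 (median 50.1). Every pull-down library was below every unselected library in each gene. Against the unselected libraries of batch 2, Malat1 changed by -0.99 (SE 0.11, adjusted p = 6.92e-09), Neat1 by -1.08 (SE 0.05, adjusted p = 2.59e-16) and Kcnq1ot1 by -0.74 (SE 0.11, adjusted p = 1.57e-06) on the log2 scale with edgeR's quasi-likelihood test. Without the library of 1126383 counts the changes were -0.96, -1.11 and -0.74. For comparison, 35.6% of the genes tested were called and 16.4% were called lower.

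Digestion of rRNA left levels near the unselected ones. Malat1 ranged from 2901 to 3385 normalised CPM (median 3017), below every unselected library. Neat1 ranged from 585 to 600.1 (median 588) and Kcnq1ot1 from 79.1 to 84.2 (median 81.2), so that Kcnq1ot1 overlapped the unselected libraries of batch 2 and lay above those of batch 1, while Neat1 overlapped batch 1 and lay just below batch 2. With edgeR's quasi-likelihood test Malat1 was lower by a log2 change of -0.33 (95% interval -0.54 to -0.12, adjusted p = 0.0329), in a comparison where 17.1% of genes were called and 8.64% were lower. That call was lost without unselected replicate 1, 2 or 3 of batch 2 (log2 -0.34, -0.29 and -0.33, adjusted p 0.0610, 0.130 and 0.0723), with library totals that leave out rRNA genes (adjusted p 0.0813), without a gene filter (0.0810) and without the covariates (0.210), in a range of -0.37 to -0.23 and of 2.34e-07 to 0.210 over 11 alternatives. With the same test the change was -0.07 for Neat1 (interval -0.17 to 0.04, adjusted p = 0.450) and 0.02 for Kcnq1ot1 (interval -0.19 to 0.22, adjusted p = 0.941). Neither was called, and changes within those intervals are not excluded.

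Both rRNA methods shared batch and input, and libraries could be compared at the same ramp rate and length. Digestion exceeded pull-down in every one of the 9 pairs for each gene. The log2 differences were 0.67 (SE 0.07) for Malat1, 1.01 (SE 0.03) for Neat1 and 0.75 (SE 0.06) for Kcnq1ot1, with adjusted p of 2.63e-10, 9.85e-22 and 4.22e-12 in edgeR's quasi-likelihood test. Genes called higher made up 34.5% of those tested. With library totals that leave out rRNA genes, which move the median of all genes by 0.26 in this comparison, the differences were 0.93, 1.27 and 1.02.

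PolyA selection stood below both rRNA methods. Against pull-down the log2 changes were -4.14 (SE 0.08), -1.99 (SE 0.03) and -5.40 (SE 0.08) for Malat1, Neat1 and Kcnq1ot1, where 35.8% of genes were called lower. Against digestion they were -4.81 (SE 0.08), -3.00 (SE 0.04) and -6.15 (SE 0.08), where 42.1% were called lower. These comparisons include any difference between batches, which in the unselected libraries was 0.07, 0.00 and 0.07. For the selected libraries it was not measured, so batch and method cannot be told apart here.

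**Figure D2:**
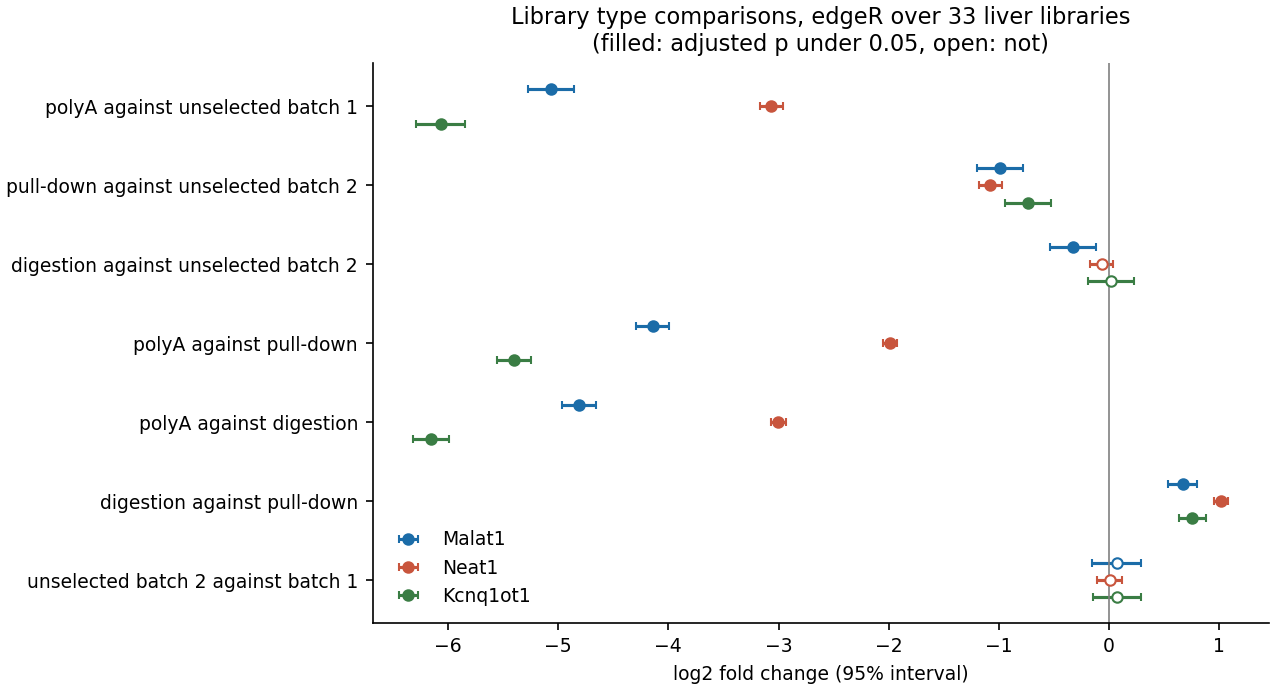
Log2 fold changes with 95% intervals for the 3 genes in 7 comparisons of library types, from the edgeR fit over 33 liver libraries, with filled points where the adjusted p is under 0.05. The order Kcnq1ot1, Malat1, Neat1 is seen in each polyA comparison, and all 3 intervals of unselected batch 2 against batch 1 include 0.

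The 3 RNAs did not change in step, and a ratio of counts within a library shows this without any scaling between libraries. Neat1 had 16.20 to 17.01 counts per 100 Malat1 counts in the unselected libraries of batch 1 and 43.7 to 85.7 after polyA selection. The ratio was 4.03-fold higher after polyA selection, in 9 of 9 libraries (two-sided exact permutation test, p = 0.00455, the smallest that 9 against 3 libraries allow, adjusted p = 0.00808 over 16 ratio tests). Over matched pairs it was 4.47-fold higher than after pull-down and 3.51-fold higher than after digestion (9 of 9 pairs each, two-sided exact sign-flip test, p = 0.00391, the smallest possible, adjusted p = 0.00808).

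Kcnq1ot1 moved the other way. It had 2.01 to 2.17 counts per 100 Malat1 counts in unselected batch 1 libraries and 0.824 to 1.26 after polyA selection, a 0.491-fold ratio that was lower in 9 of 9 libraries (exact permutation test, p = 0.00455, adjusted p = 0.00808).

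After digestion both ratios were slightly above the unselected libraries of batch 2, by 0.26 on the log2 scale for Neat1 and 0.33 for Kcnq1ot1 (9 of 9 libraries each, exact permutation test, adjusted p = 0.00808). After pull-down the Neat1 ratio was 0.942-fold, above the highest unselected library in 2 of 9, and did not pass (exact permutation test, adjusted p = 0.473), while the Kcnq1ot1 ratio was 1.18-fold higher (above the highest unselected library in 8 of 9, exact permutation test, adjusted p = 0.0224). The unselected libraries all have medium fragments, and both ratios fell with fragment length. With medium fragments alone, digestion libraries had 19.46 to 19.87 Neat1 counts per 100 Malat1 counts, and pull-down libraries 14.13 to 15.72. Unselected batch 2 libraries had 15.22 to 16.68. For Kcnq1ot1 the values were 2.68 to 2.75 (digestion), 2.50 to 2.65 (pull-down) and 2.025 to 2.15 (unselected).

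**Figure D3:**
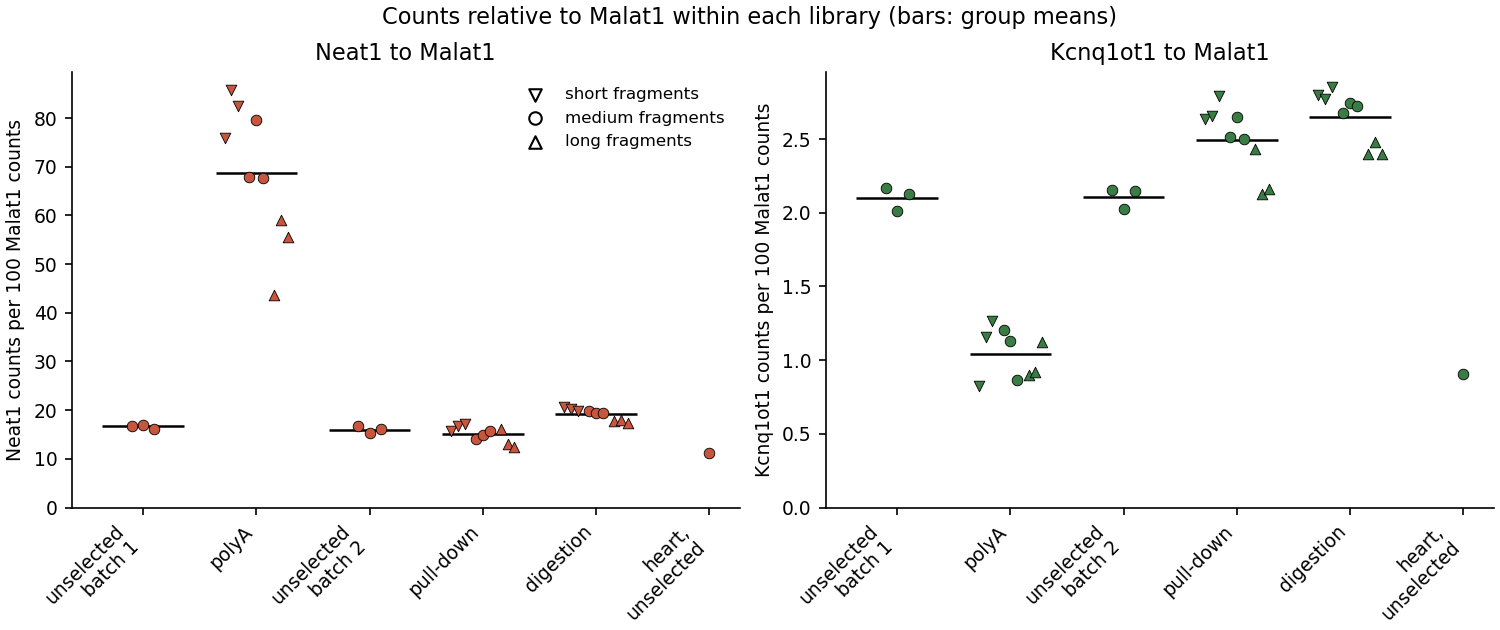
Counts of Neat1 and of Kcnq1ot1 per 100 Malat1 counts in each of the 34 libraries by library type, with marker shape for fragment length and bars for group means (the heart group is 1 library). PolyA libraries stand above all others for Neat1 and below all other liver libraries for Kcnq1ot1.

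Fragment length changed the levels in a way that depended on the method. In polyA libraries Malat1 went from 79.3 to 91.0 normalised CPM with short fragments to 90.0 to 108 with medium and 141 to 178 with long ones. Long libraries exceeded all short and medium ones. The log2 change from short to long was 0.85 (SE 0.05, adjusted p = 1.48e-07), with 27.6% of 14629 genes called higher. Kcnq1ot1 changed by 0.72 (SE 0.19, adjusted p = 0.00713) and Neat1 by 0.21 (SE 0.03, adjusted p = 1.14e-04), all in edgeR's quasi-likelihood test on the 9 polyA libraries. Kcnq1ot1 lost its call with DESeq2 (log2 0.72, adjusted p 0.0880), and the range over 8 alternatives was 0.54 to 0.82.

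In pull-down libraries the 3 genes were likewise higher with long fragments in 3 of 3 ramp rates. Malat1 had means of 1660 ± 34.3, 1908 ± 93.9 and 2339 ± 162 normalised CPM with short, medium and long fragments (SD, n = 3 each). The log2 changes were 0.50 for Malat1 (adjusted p = 0.0618), 0.23 for Neat1 (adjusted p = 0.215) and 0.23 for Kcnq1ot1 (adjusted p = 0.218), none called by edgeR in a comparison where 1.17% of 14426 genes were called higher. Without the library of 1126383 counts, which held 2634 Malat1, 425 Neat1 and 64 Kcnq1ot1 counts, all 3 were called, at 0.59, 0.17 and 0.24 (adjusted p 5.37e-06, 0.0110 and 0.00959). The share of rRNA and Lars2 counts in these libraries rose too, from 14.2 to 15.5% with short fragments to 22.7 to 24.5% with long ones, and its part in the result was not tested.

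In digestion libraries only Malat1 passed the test. Its means were 2919 ± 30.3, 3028 ± 51.5 and 3307 ± 74.6 normalised CPM with short, medium and long fragments (SD, n = 3 each), a log2 change of 0.18 (SE 0.01, adjusted p = 3.71e-08, 8.93% of 15199 genes called higher). Neat1 changed by -0.01 (95% interval -0.04 to 0.02) and Kcnq1ot1 by -0.03 (interval -0.08 to 0.01), with adjusted p of 0.666 and 0.390 in edgeR's quasi-likelihood test.

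The differences between methods were tested as interactions over the 27 selected libraries. The length effect was larger in polyA than in digestion libraries by 0.65 for Malat1 (SE 0.10, adjusted p = 2.24e-04), 0.20 for Neat1 (SE 0.06, adjusted p = 0.0182) and 0.71 for Kcnq1ot1 (SE 0.14, adjusted p = 0.00114), with 12.9% of 15442 genes called higher. Leaving out the medium ramp ended each of these calls, at differences of 0.65, 0.16 and 0.84 (adjusted p 0.0512, 0.347 and 0.0586). The Neat1 call was also lost without the fast ramp (0.22, adjusted p 0.180), with rRNA-free totals (0.17, adjusted p 0.0780) and without a gene filter (0.17, adjusted p 0.0582). Digestion minus pull-down was negative for all 3 genes, at -0.33 for Malat1 (SE 0.10, adjusted p = 0.0520), -0.24 for Neat1 (SE 0.06, adjusted p = 0.0152) and -0.27 for Kcnq1ot1 (SE 0.10, adjusted p = 0.112), where 4.66% of genes were called lower. The Neat1 call was lost without the medium ramp, without the fast ramp and without a gene filter (adjusted p 0.403, 0.161 and 0.0544). Without the library of 1126383 counts all 3 passed, at -0.38, -0.16 and -0.23 (adjusted p 0.00109, 0.00456 and 0.0230). With edgeR's quasi-likelihood test no difference between polyA and pull-down was called in the length effect of Malat1 (0.32, interval 0.12 to 0.52, adjusted p = 0.107), Neat1 (-0.04, interval -0.16 to 0.07) or Kcnq1ot1 (0.45, interval 0.17 to 0.72, adjusted p = 0.0980), where 1.92% of genes were called. Malat1 and Kcnq1ot1 passed with RLE scaling (0.36 and 0.50, adjusted p 0.0402 and 0.0483) and with DESeq2 (0.36 and 0.50, adjusted p 0.00400 and 0.0474), and Malat1 also without the library of 1126383 counts (0.28, adjusted p 0.0333).

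Over all 27 selected libraries, long against short fragments gave 0.53 for Malat1 (9 of 9 pairs), 0.16 for Neat1 (7 of 9) and 0.24 for Kcnq1ot1 (6 of 9), with adjusted p of 4.46e-06, 8.48e-04 and 0.0131 and 23.1% of 15230 genes called higher. Kcnq1ot1 missed the threshold without the slow, the medium or the fast ramp (adjusted p 0.0531, 0.0963 and 0.0580). The Neat1 to Malat1 ratio fell by 0.36 and the Kcnq1ot1 to Malat1 ratio by 0.20 on the log2 scale (lower in 8 of 9 pairs each, two-sided exact sign-flip test, adjusted p = 0.0114 and 0.0156). For PCR ramp rate no change was called in the 3 genes. The log2 changes from slow to fast were -0.02, 0.01 and 0.02 (95% intervals within -0.16 to 0.16), where 3 genes or 0.0197% were called in all.

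**Figure D4:**
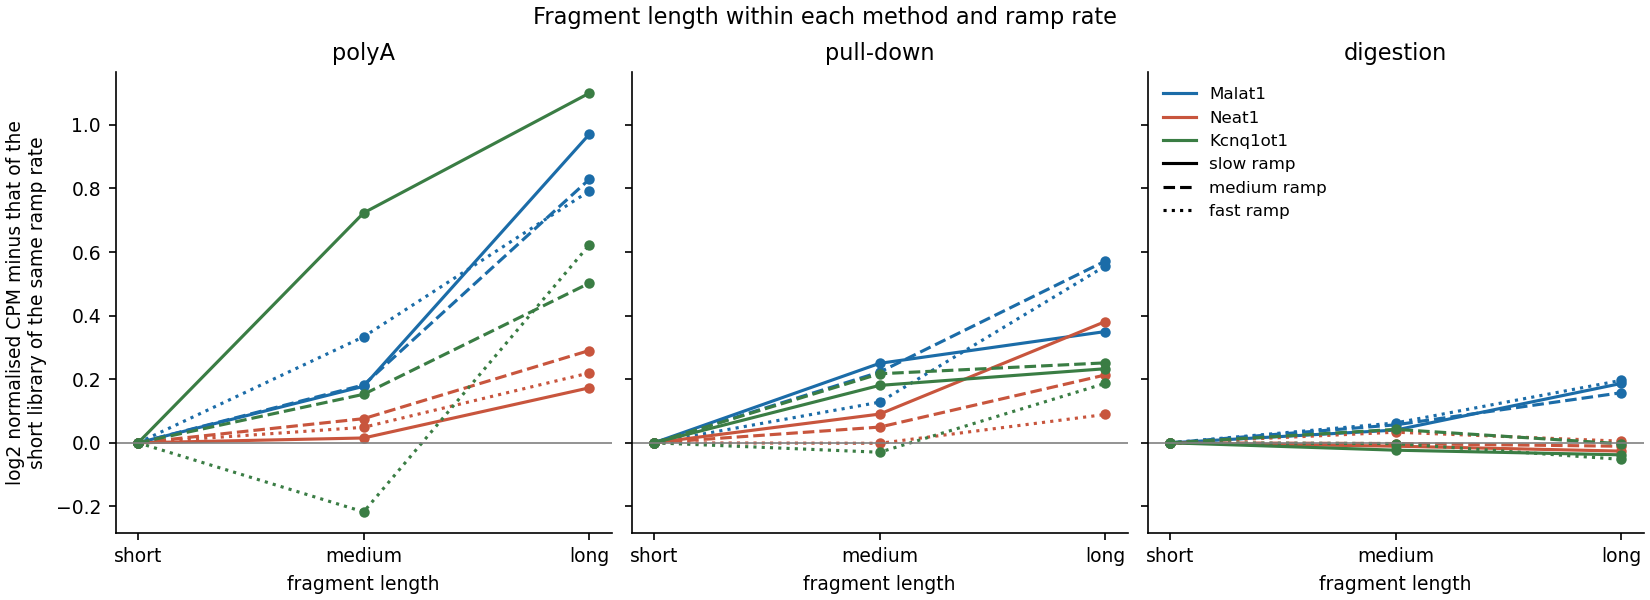
Log2 normalised CPM with short, medium and long fragments, each minus the short library of the same method and ramp rate, for the 3 genes (colours) and ramp rates (line styles). Malat1 rises in all 3 methods, most in polyA libraries (0.79 to 0.97 with long fragments), and Neat1 and Kcnq1ot1 lie between -0.05 and 0.01 with long fragments in digestion libraries.

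Other long noncoding RNAs known for nuclear roles behaved unevenly under polyA selection. Of 23 further genes of that kind in the table, 15 were tested, 9 fell and 2 rose, with a median of -0.95 on the log2 scale against 0.04 over all genes tested, of which 26.2% were called lower and 26.9% higher. Lncpint, a p53-regulated RNA, changed by -7.09 (adjusted p = 1.23e-28), beyond all 3 genes described here. Dleu2, the host of a microRNA cluster, changed by -1.44 and Peg13, an imprinted RNA, by -1.19, much less than Malat1. Firre, an X-linked RNA anchored to chromatin, and Mir22hg rose by 0.48 and 0.73.

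Of 18 tested long noncoding RNAs that are spliced or cytoplasmic, 9 rose, 3 fell and 6 did not pass, with a median of 0.47, beside 26.9% of all genes higher and 26.2% lower. This list was not tested against the nuclear one. Gas5 and Zfas1, small nucleolar RNA hosts, rose by 0.86 and 1.04, and 0610005C13Rik by 0.57. Among those called lower were 1810026B05Rik (-2.12) and 2900097C17Rik (-0.55), while the third, Gm12346, had 0 to 4 counts per library in both groups, too few for a fold. Of the 4 mRNAs known for retention in liver nuclei, 3 rose, beside the same 26.9% of all genes, namely Nlrp6 (0.52), Gcgr (0.62) and Mlxipl (0.45), and Chka stood at 0.04 (adjusted p = 0.702, edgeR).

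Pull-down lowered 5 of the 15 nuclear RNAs and raised none, led by Lncpint (-1.12), Jpx (-1.85) and Firre (-0.55), with a median of -0.29 against 0.06 over all genes, of which 16.4% were called lower and 19.2% higher. Digestion lowered none of them and raised Ftx (0.92) and Dleu2 (0.48), beside 8.64% of all genes lower and 8.51% higher. Against pull-down, digestion was higher in 12 of the 15, with a median of 0.60, and lower in Mir22hg (-0.31), in a comparison with 34.5% of all genes higher and 35.5% lower. In the spliced or cytoplasmic list it was lower in 12 of 18, led by Gas5 (-1.57), Zfas1 (-1.17) and Snhg6 (-1.66). Digestion was also higher in 16 of 23 paraspeckle protein mRNAs (3 lower, median 0.33). The same held for 14 of 21 nuclear speckle protein mRNAs (3 lower, median 0.31).

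**Figure D5:**
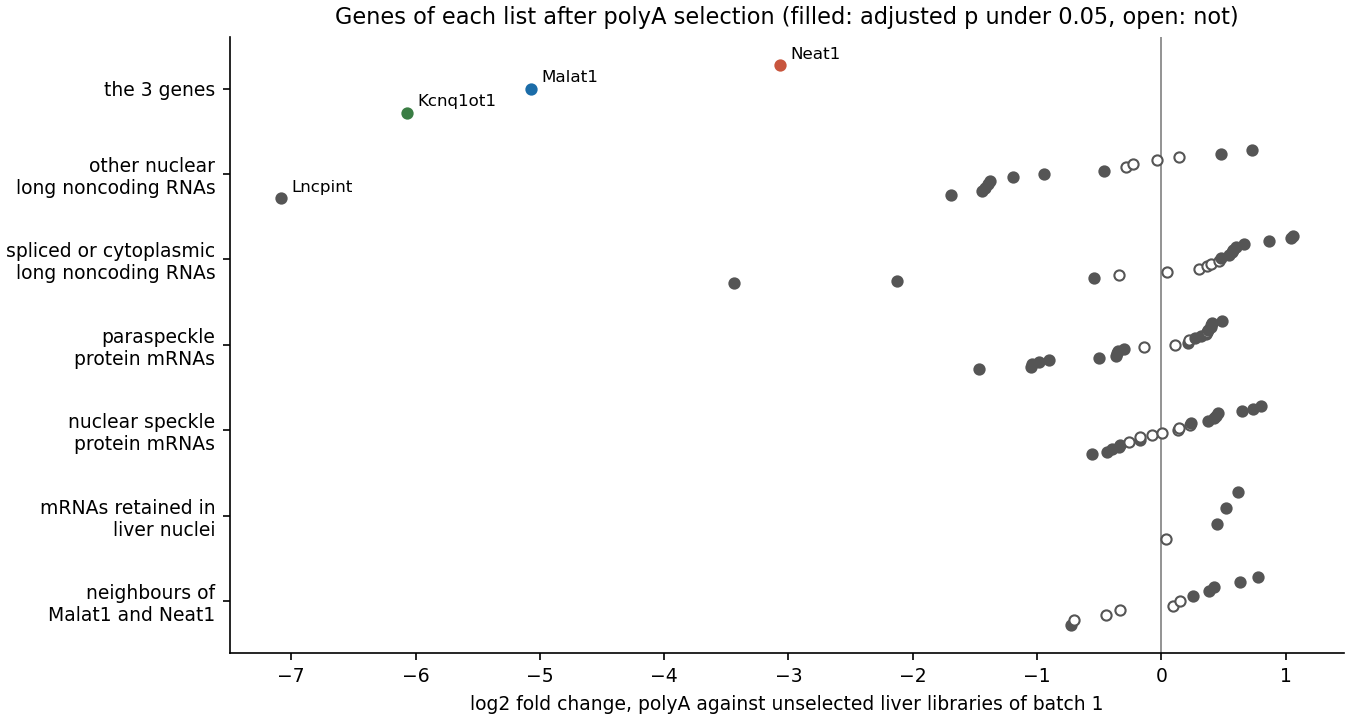
Log2 fold changes of polyA against unselected liver libraries of batch 1 for the 3 genes and for the tested genes of 6 lists, with filled points where the adjusted p is under 0.05. Lncpint is the only listed gene left of Kcnq1ot1, and the mRNAs retained in liver nuclei lie at or right of 0.

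For the mRNAs of proteins that share nuclear bodies with these RNAs, the picture after polyA selection was mixed. Of 23 paraspeckle protein mRNAs, 9 were higher and 10 lower after polyA selection, with a median of 0.11, beside 26.9% of all genes higher and 26.2% lower. Nono rose by 0.41 and Sfpq fell by 0.30, while Fign (-1.46), Pspc1 (-1.05) and Rbm14 (-0.98) were lower. Of 21 nuclear speckle protein mRNAs, 8 rose and 6 fell (median 0.13), the share that fell being near that of all genes. Srsf5, Pnn and Srsf2 rose by 0.80, 0.74 and 0.65, and Son, a core speckle protein, fell by 0.56. Srsf1, a splicing factor that binds Malat1, stood at 0.23 (adjusted p = 0.0648, edgeR).

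Pull-down lowered 12 of the 23 paraspeckle and 11 of the 21 speckle protein mRNAs, among them Taf15 (-2.62) and Fam98a (-0.87) in the first list and Srrm2 (-1.61), Srrm1 (-1.25) and Prpf8 (-0.41) in the second. The medians were -0.37 in both lists, and 16.4% of all genes were called lower. Of 10 tested mRNAs for 3′ end processing enzymes, RNase P subunits among them, 6 rose after polyA selection and none fell, beside 26.9% of all genes higher and 26.2% lower. Pop4, Rpp21 and Pop5 rose by 0.79, 0.76 and 0.67.

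Of 11 tested neighbours of Malat1 and Neat1 on chromosome 19, 5 rose and 1 fell after polyA selection, beside 26.9% of all genes higher and 26.2% lower. Slc25a45 and Capn1 rose by 0.78 and 0.42, and Ltbp3 fell by 0.72. In the imprinted domain around Kcnq1ot1, 5 of 12 tested genes rose and 2 fell, Tnfrsf26 (-1.60) and Tnfrsf23 (-1.70), with 2 to 8 counts in each unselected library of batch 1. Kcnq1, which is read across Kcnq1ot1 on the other strand, changed by -0.18 (adjusted p = 0.749) and Cdkn1c by 0.12 (adjusted p = 0.883). Kcnq1 had at most 131 counts in any library. Small RNA genes annotated within or next to Malat1 and Neat1 held at most 2 counts in any library. Whether counting used the strand is not given in the sources used here, so exon reads of Kcnq1 and Kcnq1ot1 may have been shared.

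The genes most like each of the 3 over the 33 liver libraries were named by Pearson's r of log2 normalised CPM, among 7181 genes of mean log2 level at least 3. For Malat1 they were AC157910.3, a lincRNA (r = 0.997), Il6st (0.994), 4632427E13Rik (0.993), Cers6 (0.992) and Heg1 (0.991). For Kcnq1ot1 they were AC157910.3 (0.997), 4632427E13Rik (0.995), Il6st (0.995), Zeb2 (0.992) and Rapgef2 (0.991). For Neat1 they were Gm43189 (0.994), Peak1 (0.993), Mbd5 (0.992), Zhx3 (0.990) and Lcor (0.990). Malat1 and Kcnq1ot1 correlated at 0.996, Malat1 and Neat1 at 0.978, and Neat1 and Kcnq1ot1 at 0.972.

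These correlations describe the difference between library types that all the genes share, since libraries of 1 type lie close together. The 12 genes were chosen for a pattern that includes the fall in polyA libraries, and as a description their polyA changes ran from -0.91 (Il6st) to -4.34 (4632427E13Rik) on the log2 scale. Ranked by Spearman's rho, 1 of the 5 for Malat1 and none of those for Neat1 or Kcnq1ot1 stayed among the top 5. Within library types, after removal of the group means, none did, and the r of Malat1 was 0.746 with Neat1 and 0.80 with Kcnq1ot1.

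Heart was compared with the 3 unselected liver libraries of batch 1, all made alike. The heart library showed its tissue, with 7540 normalised CPM summed over 7 cardiomyocyte markers against 0.0549 to 0.155 in liver, and 44.6 over 7 hepatocyte markers against 12556 to 12741. Here CPM was scaled within these 4 libraries, whose totals include rRNA, so levels are not on the scale used above. Malat1 had 885, 891 and 908 in liver and 1721 in heart. Neat1 had 149, 152 and 147 in liver and 193 in heart. Kcnq1ot1 had 19.2, 17.9 and 19.3 in liver and 15.6 in heart.

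The heart value lay outside the liver values for each gene, above them for Malat1 and Neat1 and below them for Kcnq1ot1. Malat1 was higher in heart by 0.94 on the log2 scale (SE 0.03, adjusted p = 2.34e-14) and Neat1 by 0.37 (SE 0.04, adjusted p = 3.91e-07), where 36.1% of 12828 genes were called higher. Kcnq1ot1 changed by -0.27 (SE 0.08, adjusted p = 0.00756), where 34.4% were called lower, and lost that call with DESeq2 (-0.22, adjusted p 0.242) and with library totals that leave out rRNA genes (-0.17, adjusted p 0.0684). These values of edgeR's quasi-likelihood test assume that the lone heart library varies like the liver ones. Fewer cells of a type and less RNA per cell cannot be told apart in bulk tissue.

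Relative to Malat1, heart had 11.2 Neat1 counts per 100 against 16.20 to 17.01 in liver, and 0.908 Kcnq1ot1 counts against 2.01 to 2.17. Per kilobase, with rRNA genes left out of the ranking, Malat1 ranked 26 in heart and 65 to 66 in liver, and Neat1 ranked 419 against 817 to 845. The 5 endothelial markers summed to 91.7 in heart and 44.7 to 50.2 in liver, but did not move together. Pecam1, Cdh5 and Kdr were higher in heart, while Stab2 (0.0342 against 18.2 to 20.0) and Clec4g (0.0342 against 4.62 to 5.0), markers of liver sinusoids, were close to 0 there. The sums were 6.87 in heart and 26.6 to 28.7 in liver for 5 Kupffer cell and macrophage genes, and 124 and 61.1 to 63.9 for 4 red blood cell genes. They were 55.6 and 36.6 to 37.2 for 4 stellate cell or fibroblast genes, and 0.410 and 1.87 to 2.19 for 3 cholangiocyte genes. Their part in the differences was not tested.

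Beside these genes, Kcnq1, which encodes a cardiac potassium channel, was higher in heart by 4.64 and Cdkn1c by 2.66. In this comparison 36.1% of all genes were called higher and 34.4% lower. Of the 9 tested genes of the imprinted domain 5 were higher and 3 lower, with Slc22a18 (-6.06) and Dhcr7 (-3.25) lowest in p. Of 15 tested nuclear long noncoding RNAs 6 were higher, led by 1700020I14Rik (1.93), Peg13 (2.10) and Airn (2.89), and 5 were lower, among them Mir22hg (-1.52), which are shares near those of all genes. Nono changed by -0.73 in heart and Sfpq stood at 0.06 (adjusted p = 0.562, edgeR).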

How the data were processed

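Gene-level RNA-seq values for 34 libraries were used as deposited. The authors deposited expected counts per gene, which are not whole numbers in 10.5% of values. The submitters' processing notes name Salmon 1.9.0, UMI-tools 1.1.1, R 4.4.0 and GRCm38. The transcript set was not given in the sources used here. GENCODE M21 on GRCm38 matched 50896 of 51368 identifiers. No library had over 0.0452% of its counts in the other 472.

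Expected counts were rounded and tested with edgeR 4.0.16 (R 4.3.3, limma 3.58.1, quasi-likelihood with the legacy option off, TMM, filterByExpr) and Benjamini-Hochberg adjustment at 0.05 over all genes tested. Method comparisons used all 33 liver libraries with ramp and length as covariates. Length, ramp and interaction terms used the 27 selected libraries or the 9 of 1 method. SE was the log2 change divided by the root of F, and 95% intervals are normal ones from that SE. On simulated counts, 79 of 100 genes changed by 1 on the log2 scale and 100 of 100 changed by 2 were recovered for polyA against unselected (14940 genes). Ratios used exact sign-flip or permutation tests over 16 comparisons. DESeq2 1.42.0 and other settings served as alternatives. No 2 libraries of the same liver group agreed within sampling noise (lowest chi-square per degree of freedom 1.40).

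The members and gene lists were chosen with earlier results of these data known. Named from each list were at most the 3 genes of lowest adjusted p per direction and comparison, plus Nono, Sfpq, Srsf1, Kcnq1 and Cdkn1c. Malat1, Neat1 and Kcnq1ot1 were named in every comparison. Values of some listed genes are not reported here. Unselected groups share replicate numbers in their titles, which did not pair the samples.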

Additional observations from a re-analysis of the deposited data

Results flagged for a closer look

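The long against short difference of all 3 genes differed between polyA and digestion libraries, by a test of the difference itself (an interaction term, edgeR's quasi-likelihood test with Benjamini-Hochberg adjustment). It was larger in polyA libraries by 0.65 on the log2 scale for Malat1, 0.20 for Neat1 and 0.71 for Kcnq1ot1. All 3 genes were higher with long fragments at 3 of 3 ramp rates in polyA libraries. Leaving out the medium ramp ended each call (adjusted p 0.0512, 0.347 and 0.0586), and the Neat1 call was also lost without the fast ramp, with rRNA-free totals and without a gene filter. In digestion libraries long fragments gave the higher level for Malat1 at 3 of 3 ramp rates, for Neat1 at 1 and for Kcnq1ot1 at 0.

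The length effect of Neat1 was also smaller in digestion than in pull-down libraries (difference -0.24 on the log2 scale), a call lost without the medium ramp, the fast ramp or a gene filter (adjusted p 0.403, 0.161 and 0.0544). Malat1 and Kcnq1ot1 had differences in the same direction that did not pass (-0.33 and -0.27). Without the pull-down library of 1126383 counts all 3 passed, at -0.38 for Malat1, -0.16 for Neat1 and -0.23 for Kcnq1ot1. In the values of the 3 genes and their ratios, no library was outlying in the 15 sets of 9 examined, although that library stood apart in depth and rRNA share.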

How the results depend on the processing

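Of the values of the 3 genes under other settings, 393 kept direction and side of the threshold, 25 newly passed, 21 no longer passed and 11 changed sign. Over 11 alternatives polyA against unselected libraries ranged from -5.21 to -4.99 (Malat1), -3.20 to -3.01 (Neat1) and -6.20 to -6.01 (Kcnq1ot1). The legacy quasi-likelihood fit was added after seeing the data. The cause of each change was not tested. Kcnq1ot1 had the fewest counts of the 3 genes (33 to 61 per polyA library).

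With library totals free of rRNA genes and Lars2, digestion against unselected gave -0.23 for Malat1 (no longer past) and 0.027 for Neat1 (sign changed), Neat1 in fast against slow ramp gave -0.0021 (sign changed), Malat1 in pull-down length 0.49 (now past), the length difference polyA minus digestion of Neat1 0.17 (lost), digestion minus pull-down of Malat1 -0.32 (now past), and Kcnq1ot1 in heart -0.17 (lost). These totals moved the median of all genes by -0.14 (polyA against unselected), -0.17 (pull-down against unselected), 0.26 (digestion against pull-down) and -0.24 (polyA against digestion). Higher and lower calls went from 4146 and 4034 to 3001 and 4866 for polyA, from 2964 and 2530 to 1473 and 3828 for pull-down, and from 1312 and 1332 to 2498 and 944 for digestion, each against unselected libraries. They went from 5319 and 5476 to 8329 and 2956 for digestion against pull-down, from 5867 and 6488 to 3902 and 8543 for polyA against digestion, and from 3513 and 2695 to 2836 and 3455 for long against short fragments.

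Without a gene filter Malat1 in digestion against unselected was -0.28, and the Neat1 length differences were 0.17 (polyA minus digestion) and -0.20 (digestion minus pull-down), all lost. Without covariates Malat1 in digestion was -0.30 (lost). Kcnq1ot1 in digestion against unselected changed sign with RLE (-0.027), DESeq2 (-0.025) and only the compared groups (-0.0085). RLE brought past the threshold the length differences polyA minus pull-down of Malat1 (0.36) and Kcnq1ot1 (0.50) and digestion minus pull-down of Malat1 (-0.34). DESeq2 did so for Malat1 (0.51) and Neat1 (0.22) in pull-down length, for polyA minus pull-down of Malat1 (0.36) and Kcnq1ot1 (0.50), and for digestion minus pull-down of Malat1 (-0.34) and Kcnq1ot1 (-0.26). DESeq2 lost Kcnq1ot1 in polyA length (0.72) and in heart (-0.22) and changed the sign of Neat1 in polyA minus pull-down (0.047). The legacy fit brought past Malat1 in pull-down length (0.50) and digestion minus pull-down of Malat1 (-0.33) and Kcnq1ot1 (-0.27).

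Without the pull-down library of 1126383 counts, Malat1, Neat1 and Kcnq1ot1 passed in pull-down length (0.59, 0.17, 0.24), polyA minus pull-down was 0.28 for Malat1 (now past) and 0.050 for Neat1 (sign changed), and digestion minus pull-down passed for Malat1 (-0.38) and Kcnq1ot1 (-0.23).

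Leaving out 1 replicate or 1 ramp rate (for the ramp comparison, 1 fragment length) at a time gave the following lowest and highest values where a call or sign changed. Malat1 in digestion against unselected ranged from -0.34 to -0.29, Neat1 in batch 2 against batch 1 from -0.0087 to 0.014, Kcnq1ot1 in long against short from 0.17 to 0.27 and in fast against slow from -0.041 to 0.097. In pull-down length Malat1 ranged from 0.46 to 0.58, Neat1 from 0.16 to 0.30 and Kcnq1ot1 from 0.22 to 0.25. The length difference polyA minus pull-down of Neat1 ranged from -0.084 to 0.056. PolyA minus digestion ranged from 0.60 to 0.70 for Malat1, 0.16 to 0.22 for Neat1 and 0.53 to 0.84 for Kcnq1ot1, and digestion minus pull-down from -0.40 to -0.27, -0.29 to -0.17 and -0.27 to -0.24.

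The number of genes called moved by over 1.5 times in 52 recounts and by less in 104. It was 2385 in place of 5494 for pull-down against unselected (only the compared groups), 1724 in place of 2644 for digestion against unselected (without replicate 2 of batch 2), 0 to 89 in place of 5 between batches, 2458 to 7647 in place of 6208 for fragment length and 0 to 45 in place of 3 for ramp rate. Within pull-down it was 12 to 5414 in place of 229 and within digestion 804 to 2775 in place of 2785. For length differences it was 20 to 1775 in place of 296 (polyA minus pull-down), 280 to 5866 in place of 3928 (polyA minus digestion) and 24 to 4162 in place of 1231 (digestion minus pull-down). RLE moved higher and lower calls to 2338 and 3011 for pull-down and 893 and 1686 for digestion against unselected, from 116 and 180 to 594 and 163 for polyA minus pull-down, and from 1987 and 1941 to 2486 and 1206 for polyA minus digestion.

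With medians in place of means no ratio passed (smallest possible adjusted p 0.0833). The Neat1 to Malat1 log2 differences were then 0.38 (digestion against pull-down), 2.26 (polyA against pull-down), 1.80 (polyA against digestion), 2.01 (polyA against unselected), 0.28 (digestion against unselected), -0.36 (long against short) and -0.0028 (ramp, sign changed). Those of Kcnq1ot1 were 0.088, -1.21, -1.28, -0.92, 0.34 and -0.22 in the same order without the ramp, and 0.22 for pull-down against unselected.

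Unselected libraries of both batches share replicate numbers, but same-numbered deviations correlated at 0.036, -0.311 and -0.370, so the libraries share only a number, and not every library correlated best with its own number. With the replicate as a block, batch 2 against batch 1 gave 0.08, 0.02 and 0.09 for Malat1, Neat1 and Kcnq1ot1 and 89 genes called in place of 5.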
